A study of Mus musculus with 12 samples.

Results

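CCR4-NOT and PAN2-PAN3 are the main enzyme complexes that shorten the poly(A) tails of cytoplasmic mRNAs, and the data described here are the mRNA levels and ribosome loading of 10 of their subunits in naive and formative mouse pluripotent cells. The 10 genes are Cnot1, Cnot2, Cnot3, Cnot6, Cnot6l, Cnot7, Cnot8, Cnot10, Pan2 and Pan3, out of 22462 genes in the count table. They were picked by name and not by a cut on any measured value, though earlier results of these data were known. All 10 were measured in all 12 libraries and all 10 passed the expression filter of 3 or more CPM (counts scaled for library size) in 3 or more libraries, which 11750 genes passed.

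The study profiled ribosomes in mouse embryonic stem cells (ESCs) and in epiblast-like cells (EpiLCs), the formative cells that ESCs become once naive-state factors are withdrawn, to ask whether translation is altered as cells leave the naive state. The medium of the ESCs held serum (15%), LIF and a pair of inhibitors known as 2i, PD0325901 and CHIR99021, and EpiLCs were harvested some 56 hours past the removal of LIF and 2i. Per the study's methods, differentiation used a reporter ESC line in which miR-290 drives mCherry and miR-302 drives GFP, so all 4 groups share those reporter alleles and a single line background. Each cell state gave 3 libraries of ribosome protected fragments (RPFs, mRNA pieces that a ribosome shields from nuclease) and 3 of total RNA. The study's text calls the replicates biological, whereas the labels do not name separate cultures, so p-values measure the spread between these libraries.

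The RPF libraries held 4777262 to 11359352 counts in ESCs and 2681439 to 5413144 in EpiLCs. The total RNA libraries held 11491044 to 13477432 and 6188838 to 14655015. Naive and primed markers followed the labels: 7 of 7 naive markers were lower and 6 of 6 primed markers were higher in EpiLC total RNA. The 2 shared pluripotency markers were lower too, Pou5f1 at -0.65 and Sox2 at -2.72 on the log2 scale (limma adjusted p at most 8.51e-11). Mean Sox2 was 192 CPM in ESC and 28.4 CPM in EpiLC total RNA. Markers of other cells were low: in total RNA their summed levels were 4.12 to 5.56 CPM in ESCs and 13.5 to 20.7 CPM in EpiLCs for 6 endoderm genes, 5.83 to 7.29 and 3.78 to 7.41 CPM for 4 mesoderm genes, 9.36 to 14.1 and 19.1 to 21.7 CPM for 3 neural genes, and 1.94 to 2.23 and 8.82 to 11.8 CPM for 5 fibroblast genes, of which Postn was at 0 in every group. The endoderm, neural and fibroblast sums were thus higher in EpiLCs, and their part in the changes below was not tested.

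Deadenylation begins decay for most mRNAs. PAN2, with its partner PAN3, is thought to trim long tails first, and CCR4-NOT removes the rest. CNOT1 is the scaffold of CCR4-NOT, on which CNOT2 and CNOT3 form the NOT module, CNOT10 joins an N-terminal module with CNOT11, and the catalytic subunits dock. Those catalytic subunits come as paralogs, CNOT7 or CNOT8 of the Caf1 type and CNOT6 or CNOT6L of the Ccr4 type. microRNA complexes reach both deadenylases through TNRC6 proteins, and CNOT1 also binds the helicase DDX6, which represses translation. CNOT1, CNOT2 and CNOT3 are known to be needed to keep mouse ESCs undifferentiated.

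Because the counts rest on reads with a single mapping position, the sequences of the paralogs matter for telling them apart. The Cnot7 and Cnot8 coding sequences were 72.8% identical over 850 aligned nt and encode 285 and 292 residues, and those of Cnot6 and Cnot6l were 74.3% identical over 1639 nt and encode 552 and 550 residues. In each pair the longest identical run was 20 nt, shorter than the 26 nt minimum of an RPF read. The runs stand in capitals within 30 nt of coding sequence (Gencode M21 transcripts on GRCm38, printed in the sense of the mRNA). The Cnot7 and Cnot8 windows cross an exon junction and lie at chr8:40499426-40500767 (minus strand) and chr11:58113198-58113963 (plus strand), intron included. The Cnot6 and Cnot6l windows lie inside an exon, at chr11:49677437-49677466 and chr5:96080070-96080099, both on the minus strand.
Cnot7: ggctaTCATTTCACAGTGGTTATGActttg
Cnot8: ggcttTCATTTCACAGTGGTTATGAttttg
Cnot6: caaatCATAAAGACTTCAAGGAACTgaggt
Cnot6l: acaacCATAAAGACTTCAAGGAACTaaggt

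Processed pseudogenes were closer than the paralogs. Of the 32 nt words in the counted sequence, 37.2% in Cnot8, 34.7% in Cnot3 and 12.4% in Cnot1 also occur in transcripts of annotated pseudogenes elsewhere, and at 26 nt the shares were 44.9%, 37.2% and 14.1%. The other 7 subunits shared no such word. Reads from shared words were not counted, so levels of Cnot8, Cnot3 and Cnot1 per length are understated. RPF reads were 26 to 32 nt and total RNA reads 32 nt or longer, so shared words remove more of the RPF reads. The ratio of RPF to total RNA of these genes within a cell state is thus understated too, by an amount not estimated. A change of the same gene between cell states is measured on the same counted bases.

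Of the 10 genes, Cnot1, Cnot2, Cnot3 and Cnot10 encode parts of CCR4-NOT that are not nucleases. All 4 fell in RPFs, where 28.7% of all genes tested fell, and 3 of them fell in total RNA, where 30.7% did. CNOT9 and CNOT11 are core subunits without nuclease activity too, and neither of their genes passed: Cnot9 was at 0.16 ± 0.08 on the log2 scale in total RNA (SE, limma adjusted p = 0.0827) and -0.025 ± 0.09 in RPFs (adjusted p = 0.828), and Cnot11 at -0.10 ± 0.10 (adjusted p = 0.402) and -0.19 ± 0.11 (adjusted p = 0.135). The Cnot11 RPF change passed with a correction for GC content (-0.30, limma adjusted p = 0.0220) and without ESC RPF replicate 2 (-0.30, adjusted p = 0.0239) or 3 (-0.28, adjusted p = 0.0478), and the Cnot9 total RNA change passed without EpiLC total RNA replicate 3 (0.24, adjusted p = 0.0138). Values below are CPM scaled by TMM factors, in replicate order. As in any bulk sample, fewer cells of a type and less RNA per cell cannot be told apart, and every level is relative to its own library. The plot of normalised read counts by library shows each subunit in each library.

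**Figure D1:**
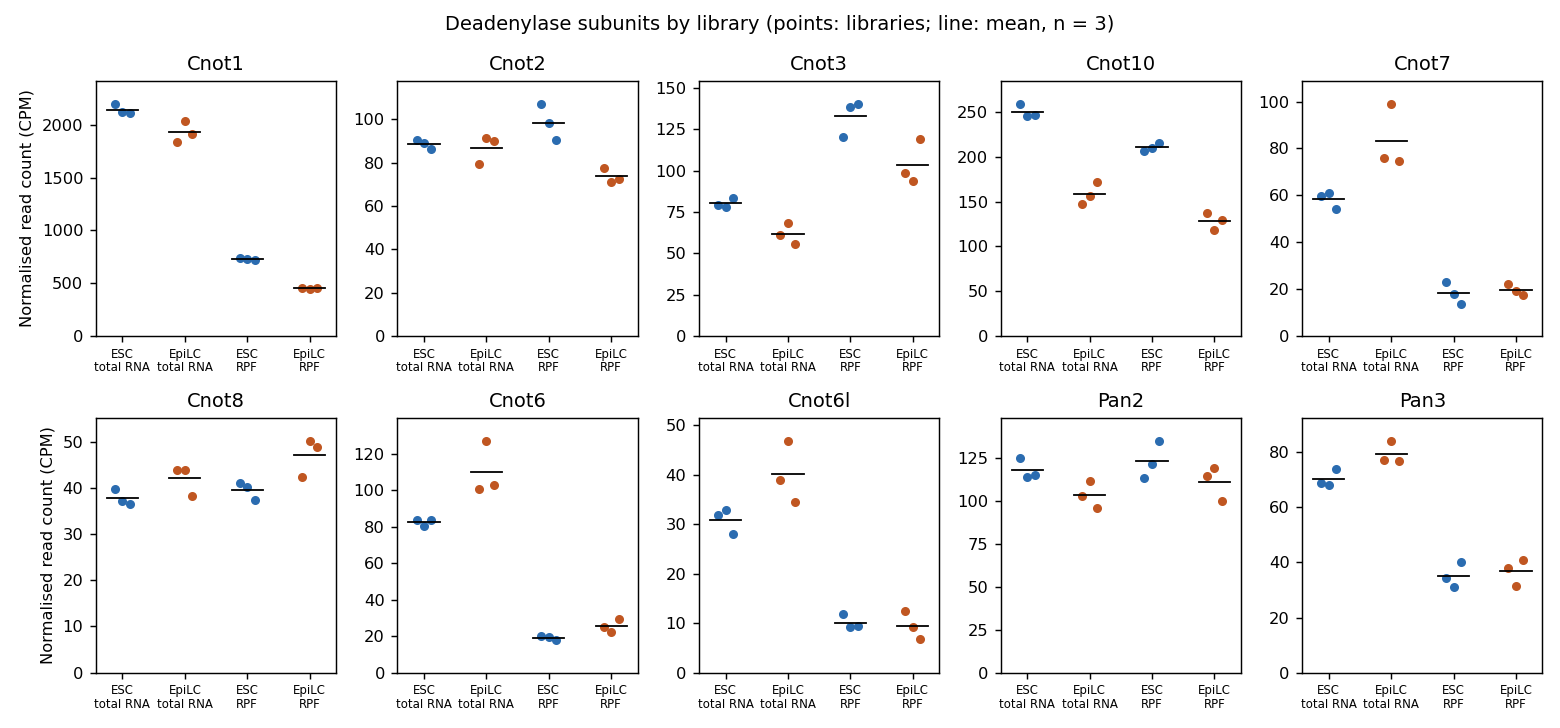
Normalised read count (CPM, linear axis from 0) of the 10 subunits in each of 12 libraries, with points for libraries and a line for the mean of 3, ESC in blue and EpiLC in orange. Cnot1 RPF counts were 718 to 735 CPM in ESCs and 447 to 456 CPM in EpiLCs, and Cnot10 was lower in EpiLCs in both assays.

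Cnot1, the scaffold (chr8:95720407-95788686, minus strand, 48 counted coding segments, 7086 nt, mm10), had the highest total RNA level per length of the 10 in both cell states. Its total RNA was 2196, 2123 and 2114 CPM in ESCs and 1839, 2040.1 and 1911 CPM in EpiLCs. Its RPFs were 735, 728 and 718 CPM in ESCs and 456, 447 and 451 CPM in EpiLCs. The groups did not overlap in either assay, and the gap was wide in RPFs and narrow in total RNA. Total RNA fell by 0.16 ± 0.04 on the log2 scale (SE, limma adjusted p = 0.000863) and RPFs fell by 0.69 ± 0.06 (adjusted p = 2.39e-10). With a correction for GC content, added after the data were seen, total RNA fell by 0.30.

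Cnot10, of the N-terminal module (chr9:114591538-114632748, minus strand, 18 segments, 2205 nt), had total RNA of 259, 246 and 247 CPM in ESCs and 147, 157 and 172 CPM in EpiLCs. Its RPFs were 206, 209.7 and 216 CPM in ESCs and 138, 118 and 129.9 CPM in EpiLCs. All EpiLC libraries lay below all ESC libraries in both assays, by nearly the same amount. The log2 changes were -0.67 ± 0.06 in total RNA (limma adjusted p = 1.53e-09) and -0.70 ± 0.08 in RPFs (adjusted p = 5.02e-08).

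Cnot3, of the NOT module (chr7:3651001-3660826, plus strand, 16 segments, 2211 nt), had total RNA of 79.1, 78.0 and 83.2 CPM in ESCs and 61.2, 68.1 and 55.5 CPM in EpiLCs. Its RPFs were 121, 138 and 140.2 CPM in ESCs and 98.5, 93.5 and 119 CPM in EpiLCs. The RPF groups were close but separate, with EpiLC replicate 3 just under ESC replicate 1. The changes were -0.39 ± 0.09 (limma adjusted p = 0.000506) in total RNA and -0.34 ± 0.10 (adjusted p = 0.00379) in RPFs.

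Cnot2, the partner of Cnot3 in that module (chr10:116486200-116549035, minus strand, 16 segments, 1670 nt), passed in RPFs and not in total RNA, a difference between assays that did not itself pass (TE, the RPF change minus the total RNA change, -0.35 ± 0.12, limma adjusted p = 0.178). Total RNA was 90.4, 88.8 and 86.2 CPM in ESCs and 79.5, 91.2 and 89.7 CPM in EpiLCs, so the groups overlapped. RPFs were 107, 98.1 and 90.3 CPM in ESCs and 77.4, 71.1 and 72.6 CPM in EpiLCs, with no overlap. The RPFs fell by 0.40 ± 0.10 (limma adjusted p = 0.00103), and the total RNA change of -0.05 ± 0.08 did not pass (adjusted p = 0.597). With the GC correction the total RNA change of Cnot2 was -0.18 (limma adjusted p = 0.0229).

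Of the catalytic subunits of CCR4-NOT, Cnot6, Cnot6l and Cnot7 rose in total RNA, where 34.6% of all genes tested rose, and Cnot8 did not pass the test. Cnot6 also rose in RPFs, the RPF changes of the other 3 did not pass, and no change in TE passed for any of these 4. The estimates for total RNA were small, with Cnot7 highest at 1.39-fold. Pan2, the nuclease of the other complex, fell instead in total RNA (-0.20, limma adjusted p = 0.0252).

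Cnot7, a Caf1-type nuclease (chr8:40493987-40510086, minus strand, 6 segments, 813 nt), had total RNA of 59.6, 61.0 and 54.1 CPM in ESCs and 75.8, 98.9 and 74.5 CPM in EpiLCs. EpiLC replicate 2 stood highest, and all EpiLC libraries were above all ESC libraries. Total RNA rose by 0.47 ± 0.10 (limma adjusted p = 0.000279), with 0.41 to 0.50 over 12 alternatives and 0.38 to 0.55 without any 1 library. Its RPFs were 22.8, 17.9 and 13.8 CPM in ESCs and 22.2, 19.0 and 17.6 CPM in EpiLCs, from 50 to 178 counts a library, and overlapped, with a change of 0.18 ± 0.22 (adjusted p = 0.486).

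Cnot8, its paralog (chr11:58109695-58117588, plus strand, 6 segments, 834 nt), had total RNA of 39.8, 37.3 and 36.4 CPM in ESCs and 44.0, 43.9 and 38.3 CPM in EpiLCs, which overlapped. Its RPFs were 41.0, 40.2 and 37.3 CPM in ESCs and 42.3, 50.2 and 48.8 CPM in EpiLCs, the EpiLC libraries all above but EpiLC replicate 1 only narrowly so. Neither the total RNA change of 0.15 ± 0.09 (limma adjusted p = 0.151) nor the RPF change of 0.25 ± 0.12 (adjusted p = 0.0661) passed. The RPF change did pass with total count scaling (0.28, adjusted p = 0.0398), upper-quartile scaling (0.27, adjusted p = 0.0469) and limma-trend (0.25, adjusted p = 0.0420).

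Cnot6, a Ccr4-type nuclease (chr11:49675193-49702607, minus strand, 11 segments, 1629 nt), had total RNA of 83.8, 80.2 and 83.4 CPM in ESCs and 100.5, 127 and 103 CPM in EpiLCs. Its RPFs were 20.3, 19.4 and 17.9 CPM in ESCs and 24.9, 22.1 and 29.3 CPM in EpiLCs. EpiLC libraries were above ESC libraries in both assays, with EpiLC replicate 2 highest in total RNA and EpiLC replicate 3 highest in RPFs. Total RNA rose by 0.38 ± 0.08 (limma adjusted p = 0.000168) and RPFs rose by 0.45 ± 0.17 (adjusted p = 0.0247). The RPF call was lost without ESC RPF replicate 2 (0.42, limma adjusted p = 0.0506) or 3 (0.35, adjusted p = 0.123), and without EpiLC RPF replicate 1 (0.45, adjusted p = 0.0514) or 3 (0.30, adjusted p = 0.198).

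Cnot6l (chr5:96077180-96134092, minus strand, 11 segments, 1623 nt) had the lowest RPF level per length of the 10. Its total RNA was 31.9, 32.8 and 28.0 CPM in ESCs and 38.9, 46.8 and 34.5 CPM in EpiLCs, all EpiLC libraries above all ESC libraries. Its RPFs were 11.8, 9.15 and 9.36 CPM in ESCs and 12.4, 9.13 and 6.76 CPM in EpiLCs, from 24 to 102 counts a library, and overlapped throughout. Total RNA rose by 0.34 ± 0.11 (limma adjusted p = 0.00987), a call lost in DESeq2 (0.33, adjusted p = 0.0620), in limma-trend (0.37, adjusted p = 0.116) and without ESC total RNA replicate 3 (0.28, limma adjusted p = 0.0590). The RPF change was -0.14 ± 0.26 (limma adjusted p = 0.658), a 95% interval of -0.69 to 0.40.

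The PAN subunits changed little. Pan2, the nuclease (chr10:128304257-128320765, plus strand, 25 segments, 3558 nt), had total RNA of 125, 114 and 115 CPM in ESCs and 103, 112 and 95.9 CPM in EpiLCs, and RPFs of 114, 122 and 135 CPM in ESCs and 115, 119 and 100.2 CPM in EpiLCs. The total RNA groups did not overlap and the RPF groups did. Its total RNA fell by 0.20 ± 0.08 (limma adjusted p = 0.0252), and the RPF change was -0.17 ± 0.09 (adjusted p = 0.110).

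The Pan2 total RNA call was lost in edgeR's quasi-likelihood test (-0.20, adjusted p = 0.0505), in limma-trend (-0.19, adjusted p = 0.0684), and without ESC total RNA replicate 1 (-0.16, limma adjusted p = 0.119) or EpiLC total RNA replicate 1 (-0.20, adjusted p = 0.0770) or 3 (-0.15, adjusted p = 0.140). Its RPF change passed with the GC correction (-0.25, limma adjusted p = 0.0230) and without ESC RPF replicate 1 (-0.28, adjusted p = 0.0148).

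Pan3, the adaptor that brings PAN2 to RNA (chr5:147430625-147546387, plus strand, 20 segments, 2642 nt), had total RNA of 68.9, 68.3 and 74.1 CPM in ESCs and 77.2, 84.1 and 76.7 CPM in EpiLCs. Its RPFs were 34.2, 31.1 and 40.0 CPM in ESCs and 38.0, 31.6 and 40.7 CPM in EpiLCs. The total RNA libraries did not overlap, yet the change of 0.16 ± 0.08 did not pass (limma adjusted p = 0.0779), and the RPFs overlapped (0.07 ± 0.13, adjusted p = 0.674).

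In total RNA 3 of the 10 subunits rose (Cnot6, Cnot6l, Cnot7) and 4 fell (Cnot1, Cnot3, Cnot10, Pan2), against 34.6% and 30.7% of all 11750 genes tested. In RPFs 1 rose (Cnot6) and 4 fell (Cnot1, Cnot2, Cnot3, Cnot10), against 31.1% and 28.7% of all genes. The counts of rises and falls in total RNA are thus near the shares of all genes. With the study's further limit of an absolute log2 change above 1, none of the 10 was called in either assay, against 14.6% higher and 9.7% lower in total RNA and 15.4% and 10.6% in RPFs. The median log2 change of the 10 was 0.05 in total RNA and -0.16 in RPFs, against 0.03 and 0.01 for all genes. Their summed counts took 0.297% to 0.309% of ESC total RNA and 0.262% to 0.289% of EpiLC total RNA, and 0.136% to 0.139% of ESC RPF and 0.0963% to 0.102% of EpiLC RPF.

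**Figure D2:**
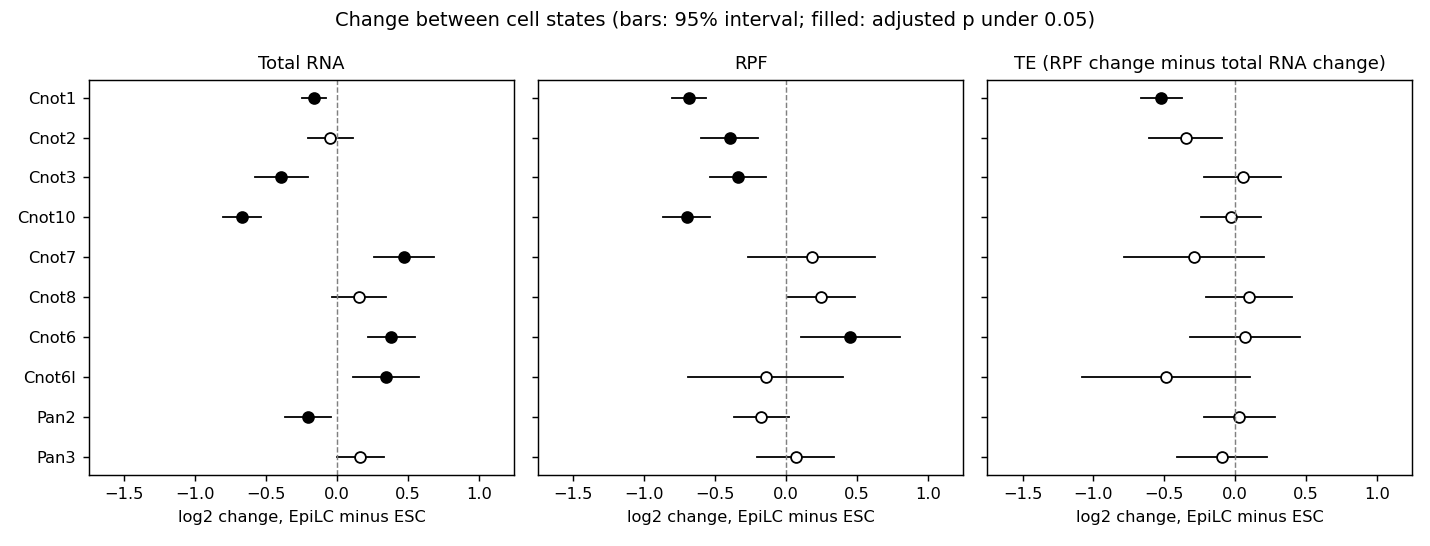
Log2 change between EpiLCs and ESCs of the 10 subunits in total RNA, in RPFs and in translational efficiency, with points for limma estimates, bars for 95% intervals, and filled points for an adjusted p under 0.05. Cnot1 is the only subunit with a filled point in the translational efficiency panel, at -0.52.

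Cnot1 was the only one of the 10 subunits whose change in translational efficiency passed the test, and it fell. Translational efficiency (TE) is the ratio of RPF to total RNA, and its change is the interaction of assay and cell state, that is the RPF change minus the total RNA change. TE of Cnot1 fell by 0.52 ± 0.07 on the log2 scale, or to 0.696 of its ESC value (limma adjusted p = 0.00015), and ranked 7 of 11750 genes by p. The 95% interval was -0.67 to -0.38. By size 688 genes had a more negative TE change, and Cnot1 had 1176 to 7826 RPF counts a library. Over 12 alternatives to the fit the change was -0.53 to -0.45 (adjusted p at most 0.00113), and without any 1 library it was -0.57 to -0.49 (adjusted p at most 0.00101).

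For the other 9 subunits the TE change did not pass. The nearest was Cnot2 at -0.35 ± 0.12 (limma adjusted p = 0.178). Cnot6l at -0.49 ± 0.29 was nearly as negative as Cnot1 but rests on few RPF counts, and its 95% interval was -1.08 to 0.11 (limma adjusted p = 0.477). Cnot7 was at -0.29 ± 0.24, and the remaining 6 lay between -0.10 and 0.10 (adjusted p at least 0.827). For Cnot10, which changed in both assays, the TE interval was -0.24 to 0.18.

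Thus 0 of 10 subunits rose in TE and 1 fell, against 0.57% and 0.63% of all genes tested, and 0 passed with the fold limit, against 0.136% and 0.119%. Of the 10, edgeR and DESeq2 also called Cnot1 alone. Among all genes the split of TE calls depended on scaling, with 47.5% of calls higher in EpiLCs under TMM, 62.2% under total count and 64.4% under upper-quartile scaling.

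Within a cell state the subunits spanned 2.85 in ESCs and 2.88 in EpiLCs on the log2 scale of TE. Relative to the median gene, Cnot1, Cnot6, Cnot6l, Cnot7 and Pan3 were poorly loaded with ribosomes and Cnot3 was well loaded, in ESCs and EpiLCs alike. These values are limma estimates given as a description, with no test. They are not corrected for shared words, which lower the TE of Cnot1, Cnot3 and Cnot8.

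**Figure D3:**
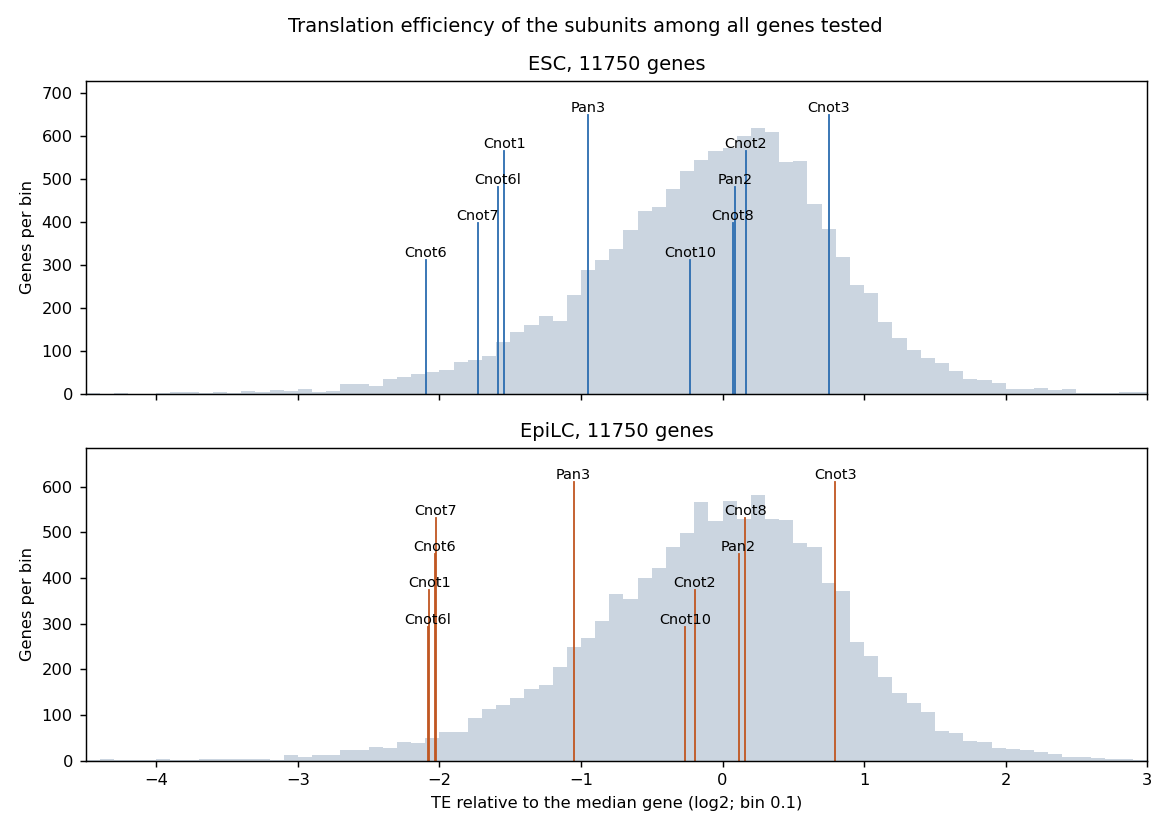
Histogram of TE relative to the median gene (log2, bins of 0.1) over 11750 genes in ESCs and in EpiLCs, with the 10 subunits marked by labelled lines; 28 ESC and 32 EpiLC genes lie outside the drawn range of -4.5 to 3. Cnot1, Cnot6, Cnot6l and Cnot7 sit together at -2.08 to -2.02 in EpiLCs, and Cnot3 sits at 0.75 and 0.80.

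In ESCs TE was lowest for Cnot6 at -2.10 ± 0.12 (SE, percentile 2.19 of all genes), then Cnot7 at -1.73 ± 0.15, Cnot6l at -1.59 ± 0.17 and Cnot1 at -1.54 ± 0.05 (percentile 5.67). The 95% intervals of each neighbouring pair among these 4 overlapped. Pan3 followed at -0.95 ± 0.10, apart from its neighbours on either side. Cnot10 (-0.23), Cnot8 (0.07), Pan2 (0.09) and Cnot2 (0.16) lay around the median gene with overlapping intervals between neighbours. Cnot3 was highest at 0.75 ± 0.08 (percentile 85.0), above the interval of Cnot2.

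In EpiLCs the same 4 genes were lowest and could not be ordered: Cnot6l at -2.08 ± 0.23, Cnot1 at -2.07 ± 0.05, Cnot6 at -2.03 ± 0.14 and Cnot7 at -2.02 ± 0.18, all at percentiles of 2.42 to 2.68. Pan3 was again next at -1.05 ± 0.12 and Cnot3 again highest at 0.80 ± 0.10 (percentile 84.5). Cnot10 (-0.27), Cnot2 (-0.19), Pan2 (0.11) and Cnot8 (0.16) lay between. So the 2 Ccr4-type genes were both poorly loaded, whereas of the 2 Caf1-type genes Cnot7 was poorly loaded and Cnot8 was near the median gene.

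Base composition moved with these levels. Coding GC content was 41.9% in Cnot7, 42.2% in Cnot6, 43.3% in Cnot6l, 45.4% in Cnot2 and 46.1% in Cnot1, then 49.2% in Cnot10, 49.4% in Cnot8, 51.3% in Pan3, 52.6% in Pan2 and 56.7% in Cnot3, against a median of 53.3% over all tested genes. Across the 10 subunits Spearman's rho of TE with GC was 0.77 in ESCs and 0.72 in EpiLCs, and across 11737 genes it was 0.21 and 0.27. These points share libraries, so rho is given as a description. After a loess correction for GC the range over the 10 was 2.21 in ESCs and 2.36 in EpiLCs. TE in ESCs was then -1.61 for Cnot6, -1.34 for Cnot1, -1.21 for Cnot6l, -1.20 for Cnot7 and -0.98 for Pan3, and the other 5 lay between -0.16 (Cnot10) and 0.60 (Cnot3). In EpiLCs it was -1.78 for Cnot1, -1.57 for Cnot6l, -1.40 for Cnot6, -1.34 for Cnot7 and -1.10 for Pan3, and the other 5 lay between -0.19 (Cnot10) and 0.58 (Cnot3), with Cnot2 moved from -0.19 to 0.13.

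Per length, the RPF levels of Cnot1, Cnot2, Cnot3 and Cnot10 were more alike than their total RNA levels, among which Cnot1 stood far above the others. Levels per length are RPKM, the scaled counts per kilobase of counted sequence, and only these can be compared between genes. In ESCs total RNA was 303 ± 6.30 RPKM for Cnot1 (SD, n = 3), 114 ± 3.35 for Cnot10, 53.0 ± 1.26 for Cnot2 and 36.2 ± 1.26 for Cnot3, a fold of 8.36 ± 0.387 between the highest and the lowest of these 4. In RPFs the same genes were at 103 ± 1.20, 95.5 ± 2.18, 58.9 ± 4.98 and 60.2 ± 4.88 RPKM, a fold of 1.84 ± 0.0806.

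In EpiLCs the fold among these 4 was 9.82 ± 0.803 in total RNA and 1.47 ± 0.0232 in RPFs. In RPFs Cnot1 was at 63.7 ± 0.658 RPKM, Cnot10 at 58.3 ± 4.43, Cnot3 at 46.9 ± 6.10 and Cnot2 at 44.1 ± 1.95. Over length without the words shared with pseudogenes the folds were 6.52 in ESC and 7.32 in EpiLC total RNA, and 2.00 in ESC and 1.73 in EpiLC RPF. Over all 10 subunits, by contrast, the range was as wide in RPFs as in total RNA, at 16.7 ± 2.12-fold against 15.96 ± 1.23-fold in ESCs and 11.6 ± 3.46-fold against 11.2 ± 1.38-fold in EpiLCs, with Cnot6l lowest in all 4 groups. Over length without shared words these ranges were 19.1-fold against 18.2-fold in ESCs and 16.7-fold against 12.8-fold in EpiLCs. Cnot9 and Cnot11, for core subunits without nuclease activity too, were not among the 4 genes compared. Their RPFs were at 103 ± 3.81 and 67.4 ± 11.2 RPKM in ESCs, and 101 ± 1.36 and 59.0 ± 4.43 in EpiLCs. Cnot9 in EpiLCs thus stood above all 4, and with it the RPF levels there would be less alike.

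**Figure D4:**
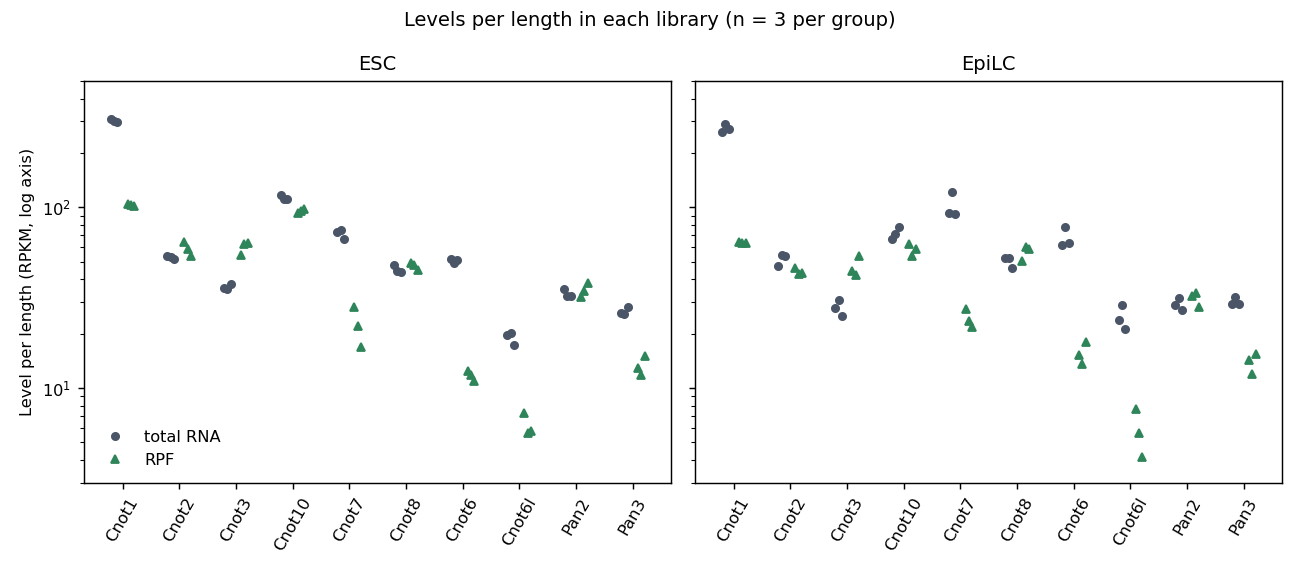
Level per counted length (RPKM, log axis, not corrected for shared words) of the 10 subunits in ESCs and EpiLCs, with a point for each of 3 libraries, circles for total RNA and triangles for RPFs. In total RNA Cnot1 stands alone at 298 to 310 RPKM in ESCs, whereas in RPFs it is at 101 to 104 RPKM with Cnot10 at 93.6 to 97.9.

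Against Cnot1 in the same library, the RPF level of Cnot10 was 93.1% ± 3.23 in ESCs and 91.5% ± 6.05 in EpiLCs (SD, n = 3), and that of Cnot2 57.4% ± 4.19 and 69.2% ± 2.35. Cnot3 stood at 58.7% ± 5.33 and 73.6% ± 9.58, or 78.7% and 98.8% over length without shared words. Cnot7 and Cnot8 together stood at 67.9% ± 6.81 in ESCs and 127% ± 5.67 in EpiLCs, and Cnot6 and Cnot6l together at 17.5% ± 1.30 and 33.6% ± 2.83. Over length without shared words these were 83.5% and 157% for the Caf1-type genes and 15.3% and 29.4% for the Ccr4-type genes. The libraries of the 2 states did not overlap for either pair: 60.9% to 74.5% against 121% to 132% for the Caf1-type genes, and 16.5% to 19.0% against 30.4% to 35.6% for the Ccr4-type genes. Both ratios have Cnot1 as their denominator, and its own RPF level was lower in EpiLCs.

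The order of RPF levels per length depended on the words shared with pseudogenes. Over the counted length it ran in ESCs Cnot1, Cnot10, Cnot3, Cnot2, Cnot8, Pan2, Cnot7, Pan3, Cnot6 and Cnot6l, where Cnot3 and Cnot2, and Pan3 and Cnot6, overlapped between libraries. In EpiLCs Cnot1 was again first, Cnot10, Cnot8, Cnot3 and Cnot2 followed and overlapped from each to the next, and Cnot6 and Pan3 overlapped. Over length without shared 32 nt words Cnot8 came first in EpiLCs, at 90.0 ± 8.04 RPKM, above Cnot1 at 72.7 ± 0.751 and Cnot3 at 71.8 ± 9.34, which overlapped, and in ESCs Cnot1 stayed first at 117 ± 1.37 with Cnot8 at 75.5 ± 3.69.

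The shared words also bear on Cnot7 against Cnot8 in total RNA, since Cnot7 has none. Over the counted length Cnot7 stood above Cnot8, at 71.6 ± 4.49 against 45.4 ± 2.11 RPKM in ESCs and 102 ± 16.9 against 50.4 ± 3.93 in EpiLCs. Without shared 32 nt words Cnot8 was at 72.3 ± 3.36 in ESCs, overlapping Cnot7, and at 80.4 ± 6.27 in EpiLCs, below it. Per the study's methods, total RNA reads were 32 nt or longer, so a correction by 26 nt words removes too much length in this assay. With it Cnot8 would stand at 82.3 ± 3.82 in ESCs, above Cnot7, and at 91.5 ± 7.14 in EpiLCs, overlapping it. Without shared 32 nt words the lead of Cnot7 in total RNA was thus lost in ESCs and kept in EpiLCs. In RPFs Cnot7 was below Cnot8 on each of these lengths, at 22.3 ± 5.58 against 47.4 ± 2.32 in ESCs and 24.1 ± 2.87 against 56.5 ± 5.05 in EpiLCs over the counted length.

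**Figure D5:**
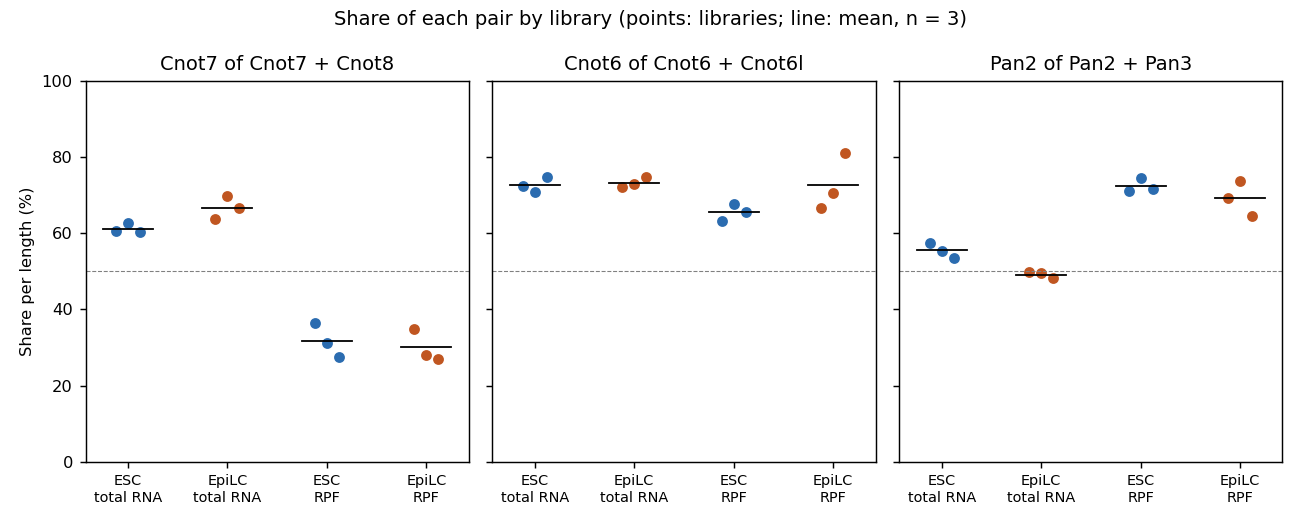
Share per counted length (%) of Cnot7 in Cnot7 + Cnot8, of Cnot6 in Cnot6 + Cnot6l and of Pan2 in Pan2 + Pan3, with a point for each library, a line for the mean of 3, and a dashed line at 50%. Cnot7 holds 60.4% to 69.8% of its pair in total RNA and 27.1% to 36.3% in RPFs, but 48.9% to 59.2% and 18.9% to 26.4% over length without shared 32 nt words, which is not drawn.

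As shares of the pairs within a library, over the counted length, Cnot7 made up 61.2% ± 1.29 of Cnot7 + Cnot8 in ESC total RNA and 66.8% ± 2.96 in EpiLC total RNA (SD, n = 3), but 31.7% ± 4.46 and 30.01% ± 4.33 in RPFs. Without shared 32 nt words these shares were 49.8% ± 1.37 and 55.8% ± 3.29 in total RNA and 22.6% ± 3.61 and 21.2% ± 3.48 in RPFs. Without shared 26 nt words they were 20.4% ± 3.35 and 19.2% ± 3.23 in RPFs. In total RNA they were then 46.5% ± 1.36 and 52.6% ± 3.33, but its reads of 32 nt or more make 26 nt words too short there. The Cnot7 share was thus lower in RPFs than in total RNA on every length, whereas a Cnot7 majority in ESC total RNA was found over the counted length alone. Cnot6 made up 72.7% ± 1.95 and 73.3% ± 1.40 of Cnot6 + Cnot6l in total RNA, and 65.5% ± 2.36 and 72.8% ± 7.54 in RPFs. Pan2 made up 55.5% ± 1.89 and 49.2% ± 0.882 of Pan2 + Pan3 in total RNA, and 72.4% ± 1.81 and 69.2% ± 4.56 in RPFs.

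Between the states, the ESC and EpiLC libraries were fully separate for 2 of these 6 shares. The Cnot7 share of total RNA was 5.56 percentage points higher in EpiLCs and the Pan2 share of total RNA fell by 6.31 points, each with an exact two-sided permutation p of 0.1, the smallest that 3 against 3 libraries allow, and an adjusted p of 0.3 over 6 tests. No such test could reach 0.05. The other 4 shares overlapped, with exact permutation p of 0.2 to 0.7.

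Some of the subunit mRNAs carry matches to the seed of the embryonic stem cell-specific microRNAs, a family encoded by the miR-290 and miR-302 clusters. In the reporter line the naive cells show the miR-290 signal alone, and EpiLCs show that of miR-302 as well. The family is shown by 2 members, with the seed (bases 2 to 8) in capitals, from RefSeq on GRCm38.p6, because its seed defines the site searched. mmu-miR-294-3p lies at chr7:3220691-3220712 and mmu-miR-302d-3p at chr3:127545665-127545687, both on the plus strand.
mmu-miR-294-3p: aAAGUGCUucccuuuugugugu
mmu-miR-302d-3p: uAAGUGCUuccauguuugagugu

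The letters AGCACTT, the complement of that seed, were searched on the sense strand in the 3′ UTRs of coding transcripts (Gencode M21), and a gene counted if any transcript held them. They occurred in 3 of the 10 subunits, Cnot6 (2 matches), Cnot6l (1) and Pan3 (1), and in 20.7% of 11737 tested genes. The Cnot6 matches lie in 22 nt windows at chr11:49673044-49673065 and chr11:49672193-49672214 and that of Cnot6l at chr5:96076658-96076679, all on the minus strand, and that of Pan3 at chr5:147547039-147547060 on the plus strand. Capitals mark the match. The 3 genes had longest 3′ UTRs of 3693, 6850 and 3838 nt, against a median of 1351 nt over tested genes, and a longer UTR has more room for any 7 letters.
Cnot6, first: caggagaggggaggAGCACTTa
Cnot6, other: atttatttcatattAGCACTTt
Cnot6l: ttgcacattatcaaAGCACTTa
Pan3: caggacagactccaAGCACTTg

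The other genes of the pathway numbered 41 in 5 lists, of which 36 were tested. Among all genes tested 34.6% rose and 30.7% fell in total RNA, and 31.1% rose and 28.7% fell in RPFs. Of 4 further CCR4-NOT subunits 2 fell in total RNA (Cnot4 and Tnks1bp1), and 1 fell in RPFs (Tnks1bp1). The Cnot4 call (-0.34, limma adjusted p = 0.0147) was lost in limma-trend (-0.30, adjusted p = 0.0683) and without EpiLC total RNA replicate 1 (-0.26, limma adjusted p = 0.135) or 3 (-0.31, adjusted p = 0.0541), and these names were picked after their values were seen. Their median log2 change was -0.22 in total RNA and -0.23 in RPFs, against 0.03 and 0.01 for all genes. Of 7 other deadenylases 2 rose and 1 fell in total RNA, and 1 rose and 1 fell in RPFs. None of these 11 genes passed for TE in limma (smallest adjusted p = 0.530) or edgeR.

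Recruiters, the RNA-binding and adaptor proteins that bring deadenylases to mRNAs, made up the longest of the 5 lists. Of 18 tested, 9 rose and 5 fell in total RNA, and 7 rose and 5 fell in RPFs. With the fold limit 3 rose and 1 fell in total RNA, against 14.6% and 9.7% of all genes, and 2 rose and 2 fell in RPFs, against 15.4% and 10.6%, so these counts are near the shares of all genes. Samd4, an RNA-binding repressor, went from 1.60 to 3.37 CPM in ESC total RNA to 12.03 to 17.4 CPM in EpiLCs, a log2 change of 2.64 ± 0.27 (limma adjusted p = 4.64e-09), and by 3.64 ± 0.51 in RPFs (adjusted p = 1.04e-06). Zfp36, which binds AU-rich elements, went from 2.55 to 3.58 CPM in ESC RPFs to 31.3 to 46.5 CPM in EpiLCs, a change of 3.63 ± 0.29 (adjusted p = 8.29e-11), with 2.30 ± 0.37 in total RNA. Samd4 had 0.638 to 0.917 CPM in ESC RPFs, from 3 to 10 counts a library, and 22 to 40 counts in ESC total RNA. Zfp36 had 12 to 39 counts in ESC RPFs and 14 to 16 in ESC total RNA. Both passed the expression filter only through EpiLC libraries, where they were high. Their rises, also those counted with the fold limit, are thus not independent of the filter.

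Among the BTG and TOB proteins, which bind the Caf1-type nucleases, Btg2 rose by 1.30 ± 0.13 in total RNA and 0.92 ± 0.13 in RPFs, and Tob1 fell by 1.54 ± 0.15 in total RNA and by 1.29 ± 0.17 in RPFs (limma adjusted p at most 7.23e-07). The groups of Btg2 and Tob1 did not overlap in either assay. Btg1, of the same family as Btg2, fell instead, by 0.76 ± 0.19 in total RNA (limma adjusted p = 0.00124) and by 1.06 ± 0.32 in RPFs (adjusted p = 0.00684), and 42.1% of its 32 nt words occur in other genes. Tob2 did not pass in total RNA (0.08 ± 0.17, limma adjusted p = 0.702) or in RPFs (0.46 ± 0.23, adjusted p = 0.0910), though its RPF change passed with the replicate number as a block (0.43, adjusted p = 0.0495) and without ESC RPF replicate 1 (0.60, adjusted p = 0.0430). No recruiter passed for TE in limma (smallest adjusted p = 0.0755). DESeq2 gave Zfp36 a TE change of 1.32 (adjusted p = 0.0432), which rests on few ESC counts. Rc3h1, an RNA-binding protein of the Roquin family named here for this result, was at -0.56 ± 0.16 for TE in limma (adjusted p = 0.0755) and passed in edgeR (-0.59, adjusted p = 0.0451), in DESeq2 (-0.57, adjusted p = 0.0177) and in limma with the replicate number as a block (-0.57, adjusted p = 0.0404).

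Of 6 tested genes for poly(A)-binding proteins and their partners, 2 rose and 1 fell in total RNA and 2 rose and 0 fell in RPFs. The total RNA calls were all genes for partners, and no poly(A)-binding protein gene that was tested passed in total RNA. Pabpc1, the main cytoplasmic poly(A)-binding protein, moved opposite to Cnot1: its RPFs were 341 to 366 CPM in ESCs and 517 to 547 CPM in EpiLCs, whereas its total RNA was 1231 to 1360 and 1148 to 1440 CPM and overlapped. Its TE rose by 0.64 ± 0.10 (limma adjusted p = 0.00066), and 49.7% of its 32 nt words occur in pseudogenes or other Pabpc genes. Paip1, a gene for a partner, was at -0.46 ± 0.14 for TE in limma (adjusted p = 0.0925) and passed in DESeq2 (-0.47, adjusted p = 0.0452). Ddx6, which binds CNOT1, rose by 0.20 ± 0.06 in total RNA (limma adjusted p = 0.00613) and did not pass in RPFs (0.07 ± 0.07, adjusted p = 0.437) or TE (-0.13 ± 0.10, adjusted p = 0.571). Its total RNA call was lost with the GC correction (0.06, limma adjusted p = 0.327).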

How the data were processed

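The authors deposited raw counts per gene. Per the file headers, the labels and the study's methods, cutadapt (version 1.14) removed adapters, RPF reads of 26 to 32 nt were kept, single-position reads were aligned to mm10 with STAR (version 2.5.3a) on Gencode M14, and 5′ read ends were counted on the sense strand of coding sequence without its first 45 nt with featureCounts (version 1.5.3). Treatment of PCR duplicates is not given in the sources used here. Depth is given above. No 2 libraries of a group were alike within sampling noise (chi-square over genes of 2.53 to 7.55 per degree of freedom in 12 pairs).

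From the deposited counts, symbols were matched for 22385 of 22462 genes. Genes with at least 3 CPM in at least 3 libraries were scaled by TMM (edgeR version 4.0.16) and fitted with voom and limma (version 3.58.1, R version 4.3.3), 4 groups in all 12 libraries and no replicate block. P-values were adjusted by Benjamini-Hochberg over 11750 genes and called below 0.05. Groups came from the sample titles. The study calls the total mRNA matched to the RPFs, but the labels do not say which libraries share a culture. Same-numbered libraries did not deviate together (correlations of -0.18 to 0.16), which cannot show that their cultures were separate. Numbers were not taken to pair samples in the main fit. With same-numbered RPF and total RNA libraries blocked as a culture, Cnot1 TE changed by -0.52 (limma adjusted p = 8.62e-05). The limma fit was run on simulated counts only as a check of the code, and its outcome is not used here. Pair shares used exact permutation tests (scipy version 1.17.1). DESeq2 (version 1.42.0), edgeR's quasi-likelihood test, limma-trend, other scalings and filters, blocks and leaving out each library were alternatives. A GC correction (loess, span 0.3) and lengths without shared words were chosen after seeing the data.

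The subunits and lists were chosen with earlier results of these data known. Every subunit is named. The rule for the other genes took up to 4 per list with the largest change past an adjusted p of 0.05 and an absolute log2 change of 1 in total RNA or RPF. It also took any past 0.05 for TE, and Ddx6. Cnot4, Cnot9, Cnot11, Tnks1bp1, Btg1, Tob2, Rc3h1 and Paip1 lie outside this rule. Btg3, Btg4, Nanos2, Nanos3 and Pabpc1l did not pass the filter.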

Additional observations from a re-analysis of the deposited data

Results flagged for a closer look

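The response of Cnot1 differed between RPF and total RNA: TE changed by -0.52 on the log2 scale between ESCs and EpiLCs (interaction term, limma adjusted p = 0.00015). The response of Pabpc1 differed in the opposite direction, by 0.64 (limma adjusted p = 0.00066). What lies behind either difference was not tested.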

How the results depend on the processing

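Of 266 recomputed counts, ranges and shares, 239 were scored alike. Counts had to be close to the main count in ratio, ranges to stay within their spread, and shares to keep their sign. A count scored alike can thus hide a lost call: 3 subunits fell in total RNA in edgeR and 4 in the main fit. Of 1953 recomputed values of single genes 1854 were scored alike. Changes had to keep their sign and side of the threshold, and TE levels to stay within their spread. Some values could not move, since a fold between subunits within a library is the same under any scaling of that library. Leaving out an RPF library also removes no value from a total RNA change, nor the reverse. The totals thus overstate how far the results were put to the test. The fall of Cnot1 in TE and in RPFs and the falls of Cnot10 in both assays passed under every alternative run other than the fold limit. Samd4 gave no value with the filter of 10 counts in every library. With the fold limit 0 subunits were called in each direction in total RNA, RPF and TE, and of the other pathway genes 3 rose and 1 fell in total RNA, 2 rose and 2 fell in RPFs and 0 rose in TE. The number of subunits higher in RPFs was 2 in limma-trend, total count scaling and upper-quartile scaling, and 0 to 1 when a library was left out. In edgeR 1 other pathway gene fell in TE. The GC correction narrowed the range of TE over the subunits to 2.21 in ESCs and 2.36 in EpiLCs and put Cnot2 in EpiLCs at 0.13. Over length without shared words the fold between the highest and lowest subunit in RPFs was 19.1 in ESCs and 16.7 in EpiLCs, and with 26 nt words in place of 32 nt words 19.4 and 18.98. Several changes that had not passed reversed sign, and the cause was not tested. For TE these were Cnot3 (-0.022 with the GC correction and -0.023 with GC and the replicate block together), Pan2 (-0.022 and -0.021), Cnot6 (-0.011 in limma-trend) and Cnot10 (0.0025 with upper-quartile scaling), Tnks1bp1 (-0.041 and -0.048 with the GC correction and with GC and block), for RPF Pan3 (-0.011 and -0.0086 with the same 2 settings) and Cnot9 (0.0045 with total count scaling), and for total RNA Tob2 (-0.018 in DESeq2, -0.085 with the GC correction and -0.14 with GC and block). When a library was left out, TE ranged over -0.064 to 0.11 for Cnot3, -0.053 to 0.15 for Cnot6, -0.10 to 0.026 for Cnot10, -0.044 to 0.12 for Pan2, -0.17 to 0.031 for Pan3, -0.063 to 0.44 for Tob1, -0.054 to 0.19 for Cnot4, -0.16 to 0.032 for Cnot11 and -0.025 to 0.10 for Tnks1bp1. The RPF change ranged over -0.45 to 0.12 for Cnot6l, -0.11 to 0.34 for Cnot7, -0.041 to 0.16 for Pan3 and -0.037 to 0.091 for Ddx6, and the total RNA change over -0.085 to 0.038 for Cnot2, -0.10 to 0.038 for Pabpc1 and -0.12 to 0.21 for Tob2. The Cnot6 share of total RNA changed by -0.30 to 1.63 points and the Cnot7 share of RPF by -4.17 to 0.63 points. With the replicate number as a block 3 subunits rose and 4 fell in total RNA, 1 rose and 4 fell in RPFs and 1 fell in TE (Cnot1, -0.52, limma adjusted p = 0.000157). Among the named subunits and other pathway genes, Paip1 left out, the block changed only 2 calls. These were Tob2 in RPFs (0.43, limma adjusted p = 0.0495) and Rc3h1 in TE (-0.57, adjusted p = 0.0404). RPF depth limits Cnot6l and Cnot7 most.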
